A study of Mus musculus with 29 samples.

Results

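Making a collagen takes a chain of helper proteins, and 8 of them were followed here across the 9 groups of a mouse cell culture series. The genes are P4ha1, P4ha2, Plod1, Plod2, Serpinh1, Fkbp10, Pxdn and Loxl2, found by the accession printed for each array probe, and they are 8 of 20968 genes with a probe and 8 of 16343 genes tested. Messenger RNA was measured on 29 single-colour arrays. Late and Mid are endoderm cultures named nEnd, at passage 14 to 15 and passage 7 to 10. Both were passaged from Diff, which is the double reporter line HRHnG after 7 to 8 days with Activin, CHIRON (an inhibitor of the kinase GSK3) and LIF, and ESC is that line undifferentiated in 2i/LIF. XEN is an established extraembryonic endoderm line of its own in standard XEN medium. ADE stands for anterior definitive endoderm, obtained over 4 days from epiblast stem cells, and EpiSC is the stable culture of those stem cells. NACL is stem cells adapted over at least 3 passages to the basal medium N2B27 supplemented by Activin, CHIRON and LIF, and 2iL is stem cells kept for at least 3 passages in 2i/LIF. EpiSC and ADE carry the line name HRHNG, which was taken to be HRHnG. NACL and 2iL come from the lines HVMC, E14 and E14-NanogGFP. All cultures were male and lysed on the plate. There were 4 arrays of ADE, 4 of NACL and 3 of every other group. Late and Mid replicates were separate differentiations. In 2iL the arrays differ in line: 2iL 1 is HVMC, 2iL 2 is E14 and 2iL 3 is E14-NanogGFP. NACL 1 and NACL 2 are both HVMC, NACL 3 is E14 and NACL 4 is E14-NanogGFP. For the remaining groups, and between NACL 1 and NACL 2, the labels do not say what separates the replicates. The p-values measure only the spread between these samples, which may be technical where the labels are silent.

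Collagen chains are modified in the endoplasmic reticulum before they fold into a triple helix. Prolyl 4-hydroxylase, whose catalytic subunits include P4ha1 and P4ha2, hydroxylates proline and so stabilises the helix, and the lysyl hydroxylases Plod1 and Plod2 prepare lysine for sugars and crosslinks. Serpinh1 is a chaperone that binds the folded helix, and Fkbp10 is a prolyl isomerase chaperone of the same compartment. Outside the cell, the peroxidase Pxdn joins collagen IV molecules through sulfilimine bonds and the oxidase Loxl2 starts lysine crosslinks. Collagen IV is the network collagen of basement membranes, and parietal endoderm, a derivative of primitive endoderm, is known for the thick basement membrane it lays down around the embryo.

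Each level is a log2 signal relative to the 75th percentile of its array, and each change is a difference of group means on that scale, with its standard error (SE). A change was called at an adjusted p under 0.05 in limma, adjusted over all genes tested. Scaling by each array's median in place of the 75th percentile moved the higher calls, as a share of all calls, to 74.1% (against 55.4%) in Diff minus ESC, 78.3% (58.8%) in XEN minus ESC, 24.0% (40.4%) in nEnd minus XEN and 23.4% (55.2%) in Late minus Mid. Levels of different genes come from different probes and are not set against each other. ESC, Diff, Mid, Late and XEN form 1 set of arrays and the other 4 groups another set, read at other times with another software version, so that for levels compared across the sets, the set and the group cannot be told apart. Cultures were measured in bulk, in which fewer cells of a type and less RNA per cell cannot be told apart.

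The labels were set against marker genes. All 6 markers of primitive and extraembryonic endoderm (Gata6, Gata4, Sox17, Sox7, Pdgfra and Dab2) were well above background on every Diff, Mid, Late, XEN and ADE array, and their summed signal was 143 to 258 times the 75th percentile in Diff, Mid, Late and XEN, against 0.274 to 0.303 times in ESC. The 4 parietal endoderm genes were all called higher in Diff than in ESC. All 5 definitive endoderm genes were called higher in ADE than in EpiSC, and 3 of the 5 were called higher in Diff than in ESC. Of 4 primed epiblast markers, 3 were called higher and 1 lower in ADE than in EpiSC. Among those higher in ADE, Fgf5 averaged 6.42 in ADE and 3.85 in EpiSC. Of the same 4 markers, 3 were called higher and 0 lower in EpiSC than in 2iL. Of the 6 pluripotency markers, Nanog and Sox2 were well above background on 0 of 3 XEN arrays and Pou5f1 on 1 of 3. Klf4, Zfp42 and Esrrb were well above background on 3 of 3 XEN arrays. The sum of the 6 was 13.9 to 21.8 times the 75th percentile in XEN, against 343 to 346 times in ESC. All 6 were well above background on every NACL, 2iL, ESC and Diff array. A sum over 9 fibroblast markers was 18.0 to 26.8 times the 75th percentile in EpiSC, where 8 of the 9 were well above background on every array, and 3.95 to 17.6 times in ADE. It was 2.96 to 18.3 times in NACL and 1.77 to 2.85 times in 2iL, and no more than 1.47 times on any ESC, Diff, Mid, Late or XEN array. Mesoderm markers summed to 6.27 to 15.1 times on all arrays. Of 4 trophoblast markers, 1 was called higher and 1 lower in Diff than in ESC, and 3 higher and 1 lower in ADE than in EpiSC.

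Upstream sequence is given for P4ha1 and P4ha2, which make the same kind of subunit but differ in the ADE comparison below. It is also given for Pxdn, the gene with the widest range of levels on the probes used. The RefSeq promoter table (build GRCm38.p6) matched 5 of the 8 genes: P4ha1, P4ha2, Plod1, Serpinh1 and Pxdn. Each sequence is the 250 bases before the start of the gene, 5′ to 3′ on the gene's strand. Capitals mark ACGTG and GCGTG on either strand, the core letters of the element that hypoxia-inducible factors bind, with overlapping matches both marked. The P4ha1 stretch lies at chr10:59323046-59323295 (plus strand), the P4ha2 stretch at chr11:54100674-54100923 (plus strand) and the Pxdn stretch at chr12:29937786-29938035 (plus strand).
P4ha1: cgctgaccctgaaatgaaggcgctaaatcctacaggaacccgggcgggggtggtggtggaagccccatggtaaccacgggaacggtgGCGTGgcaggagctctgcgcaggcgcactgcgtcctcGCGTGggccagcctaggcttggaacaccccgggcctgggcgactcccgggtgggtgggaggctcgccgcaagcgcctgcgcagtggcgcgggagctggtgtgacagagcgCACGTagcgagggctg
P4ha2: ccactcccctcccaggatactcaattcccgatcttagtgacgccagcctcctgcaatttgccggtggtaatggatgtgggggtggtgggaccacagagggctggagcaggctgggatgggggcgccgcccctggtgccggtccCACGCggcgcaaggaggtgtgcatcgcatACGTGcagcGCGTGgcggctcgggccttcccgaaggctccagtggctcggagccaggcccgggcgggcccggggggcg
Pxdn: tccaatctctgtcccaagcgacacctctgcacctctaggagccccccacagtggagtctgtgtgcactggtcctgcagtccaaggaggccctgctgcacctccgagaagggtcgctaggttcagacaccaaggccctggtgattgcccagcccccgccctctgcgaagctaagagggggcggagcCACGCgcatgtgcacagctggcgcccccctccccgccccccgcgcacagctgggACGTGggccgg
At least 1 of these cores was found in 5 of 5 windows, against 38.6% of 32851 RefSeq promoter windows of 250 bases. P4ha1 and P4ha2 held 3 each, Pxdn 2, Plod1 1 and Serpinh1 1. ACGTG alone was in 4 of 5 (16.6% of all windows) and GCGTG alone in 4 of 5 (28.2%). AGATAA, letters that GATA factors bind, was in 0 of 5 on either strand (9.99% of all windows). The 5 windows were 61.6% to 70% G and C, against a median of 52.4% over all windows, and both cores are rich in G and C. A match describes letters only.

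**Figure D1:**
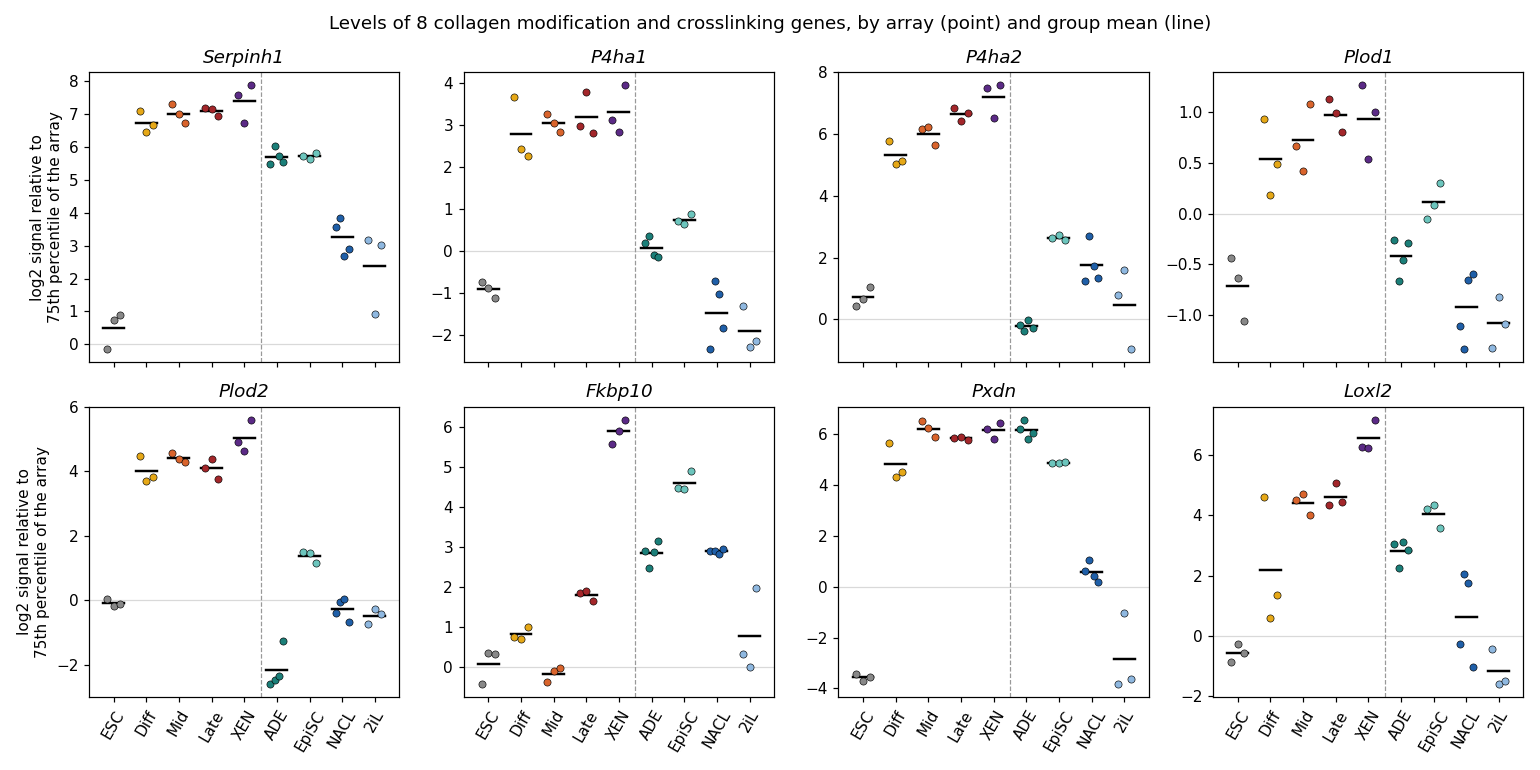
Levels of the 8 genes on each array (points, log2 signal relative to the array's 75th percentile) with the group mean (line), for the first array set left of the dashed line and the second right of it; each panel has its own vertical scale. In 7 panels Diff, Mid, Late and XEN all stand above ESC, while Fkbp10 is near its ESC level in Mid and reaches 5.89 on average in XEN.

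Diff and ESC bear on the first step, the exit of naive stem cells into endoderm within 7 to 8 days. Of the 8 genes, 7 were called higher in Diff than in ESC and 0 lower, where 42.4% of all tested genes were called, 23.5% higher and 18.9% lower. The arrays of both groups did not overlap for 8 of 8 genes, as for 56.3% of all tested genes. The median change of the 8 was 3.89, against -0.04 over all genes tested. The sizes ran from 2.37-fold for Plod1 to 329-fold for Pxdn, and Fkbp10 was the gene that was not called.

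Among the prolyl hydroxylase subunits, P4ha2 measured 5.77, 5.03 and 5.13 in Diff, against 0.42, 0.67 and 1.05 in ESC. The Diff arrays all stood far above the ESC arrays, a change of 4.60 ± 0.44 (SE, limma adjusted p = 1.7e-08). P4ha1 measured 3.66, 2.43 and 2.27 in Diff, against -0.72, -0.88 and -1.10 in ESC, a change of 3.69 ± 0.39 (SE, limma adjusted p = 8.0e-08). Its groups did not overlap either, and Diff 1 was the highest Diff array.

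The lysyl hydroxylases differed in size. Plod2, the form that acts on the ends of collagen chains, measured 4.47, 3.71 and 3.84 in Diff, against 0.04, -0.19 and -0.11 in ESC, a change of 4.10 ± 0.30 (SE, limma adjusted p = 2.3e-10). Plod1, which acts on the helical part, measured 0.93, 0.19 and 0.49 in Diff, against -0.44, -0.63 and -1.06 in ESC. The arrays were apart for both genes, but the Plod1 change was 1.25 ± 0.24 (SE, limma adjusted p = 0.00021). A second, dimmer Plod1 probe changed by 0.25, and the mean of both probes by 0.75, so the size for Plod1 depends on the probe.

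Of the chaperones, Serpinh1 measured 7.11, 6.45 and 6.67 in Diff, against -0.15, 0.73 and 0.90 in ESC. This is a 76.0-fold difference, 6.25 ± 0.43 on the log2 scale (SE, limma adjusted p = 9.0e-11), with the Diff arrays close to each other. Fkbp10 measured 0.77, 0.72 and 1.01 in Diff, against -0.41, 0.36 and 0.33 in ESC. The arrays did not overlap, but the change of 0.74 ± 0.32 did not pass (SE, limma adjusted p = 0.072); with arrays scaled on their median it was 1.10 and passed (limma adjusted p = 0.019).

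Of the enzymes that act outside the cell, Pxdn measured 5.62, 4.31 and 4.50 in Diff, against -3.41, -3.69 and -3.55 in ESC. Its change was 8.36 ± 0.46 (SE, limma adjusted p = 3.0e-12). Another Pxdn probe gave 3.09, in the same direction, and the authors' series matrix values gave 5.06, so the 329-fold holds for the probe and values used here. Loxl2 measured 4.63, 0.59 and 1.37 in Diff, against -0.85, -0.25 and -0.55 in ESC, a change of 2.75 ± 0.75 (SE, limma adjusted p = 0.0047). Diff 1 stood more than 3 log2 units above the other Diff arrays: without it the change was 1.53 and not called (limma adjusted p = 0.060), and with Diff and ESC fitted alone the call was lost too (limma adjusted p = 0.065). Diff 1 was also the highest Diff array for the other members apart from Fkbp10. In every scan day and on the slide that held both groups, all 8 genes were higher in Diff.

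The list of 30 other genes of collagen processing, of which 26 were tested, was mixed here. Of these, 11 were called higher and 5 lower, with a median change of 0.48. P3h2, a prolyl 3-hydroxylase, was higher by 5.10 ± 0.76 (SE, limma adjusted p = 9.4e-06), with 2 of 3 ESC arrays well above background. Bmp1, the protease that trims fibrillar procollagens and activates lysyl oxidases, was higher by 4.44 ± 0.38 (SE, limma adjusted p = 2.5e-09). Pcolce, the enhancer of that protease, fell by 3.71 on the log2 scale (SE 0.59, limma adjusted p = 2.0e-05). Of the collagen IV chains, a pair moved further than any of the 8 genes: Col4a1 averaged 7.81 in Diff against -5.19 in ESC, where 1 of 3 arrays was well above background, and Col4a2 averaged 7.40 in Diff against -3.74 in ESC. Both were called, with changes of 13.00 ± 0.80 and 11.14 ± 0.54 (SE), and the other 3 tested chains were not.

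**Figure D2:**
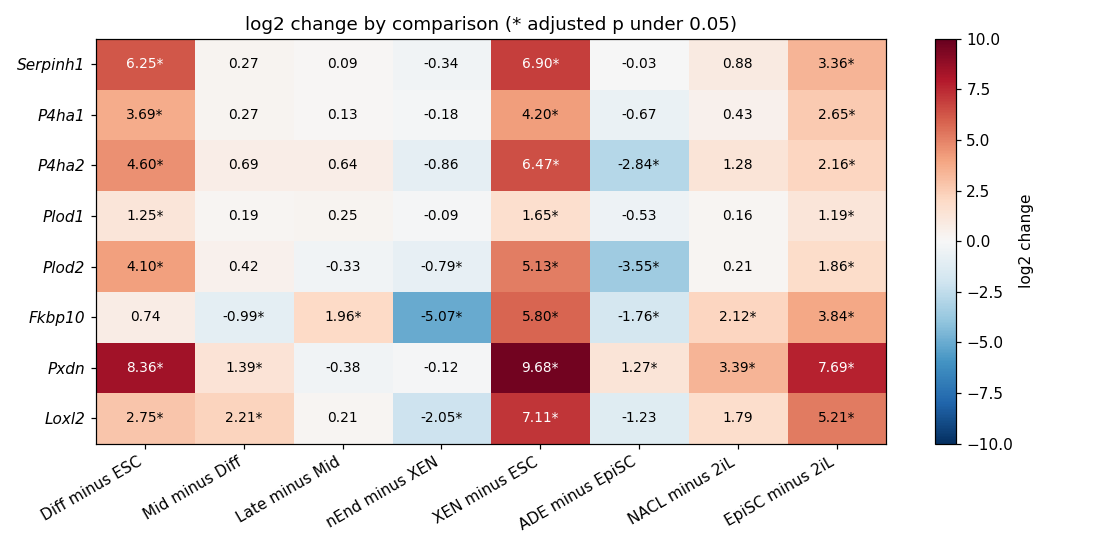
log2 change of each gene (rows) in 8 comparisons (columns), coloured from blue (lower) to red (higher), with a star where limma's adjusted p is under 0.05. The Diff minus ESC, XEN minus ESC and EpiSC minus 2iL columns are positive in every row, while Fkbp10 in nEnd minus XEN (-5.07) and Plod2 in ADE minus EpiSC (-3.55) are the lowest values shown.

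Expansion of Diff as nEnd was followed over 2 steps. From Diff to mid passage, 3 of the 8 genes were called (29.1% of all tested genes were, 12.3% higher and 16.8% lower), 2 higher and 1 lower. Arrays were without overlap for 2 of 8 (39.2% of all tested genes). Pxdn measured 6.51, 6.22 and 5.88 in Mid, against 5.62, 4.31 and 4.50 in Diff, a change of 1.39 ± 0.46 (SE, limma adjusted p = 0.026). Loxl2 measured 4.51, 4.70 and 4.01 in Mid, against 4.63, 0.59 and 1.37 in Diff, a change of 2.21 ± 0.75 (SE, limma adjusted p = 0.029). The Loxl2 arrays overlap, because Diff 1 was already at the Mid level (without it the change was 3.43), and on the 2 slides that held both groups its difference ran from -0.11 to 4.11. Fkbp10 measured -0.36, -0.10 and -0.01 in Mid, against 0.77, 0.72 and 1.01 in Diff, and fell by 0.99 on the log2 scale (SE 0.32, limma adjusted p = 0.025). These calls were close to the threshold. The calls of Pxdn and Loxl2 were lost without Diff 2 (changes of 1.14 and 1.41), and all 3 were lost without Diff 3 (Pxdn 1.24, Loxl2 1.80, Fkbp10 -0.90), without Mid 1 (Pxdn 1.24, Loxl2 2.16, Fkbp10 -0.89), without Mid 2 (Pxdn 1.38, Loxl2 2.07, Fkbp10 -1.02) and with arrays scaled on their median. The Fkbp10 call was also lost with normexp correction and with the authors' series matrix values, that of Loxl2 with the replicate block, the slide block and the compared groups alone, and that of Pxdn with the compared groups alone.

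The other 5 genes moved by 0.19 to 0.69 from Diff to Mid and were not called. P4ha2, the largest of them, measured 6.14, 6.23 and 5.63 in Mid, against 5.77, 5.03 and 5.13 in Diff. Among the 26 other processing genes tested, 3 were called higher and 7 lower. The peptidyl-prolyl isomerases Fkbp14 and Fkbp7 were higher by 2.14 ± 0.36 and 2.11 ± 0.28 (SE), while Pcolce2, a relative of Pcolce, fell by 4.43 on the log2 scale (SE 0.87) and was well above background on 1 of 3 Mid arrays.

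Between mid and late passage Fkbp10 was the 1 gene of 8 that was called (6.84% of all tested genes were, 3.78% higher and 3.07% lower). Arrays were without overlap for 3 of 8 (29.5% of all tested genes). It measured 1.85, 1.91 and 1.66 in Late, against -0.36, -0.10 and -0.01 in Mid. Every Late array stood above every Mid array, at 3.90-fold and a change of 1.96 ± 0.32 (SE, limma adjusted p = 0.00084). Late and Mid replicates with the same number deviated together over all genes. A fit with replicate number as a block kept the call (replicate block, limma adjusted p = 0.0013). That fit held ESC, Diff, Mid, Late and XEN alone and blocked all of them. Genes called overall were 620 in it and 1118 in the main fit of all 29 arrays. The part of the block and that of the smaller fit cannot be told apart. The Fkbp10 level had a low point at mid passage, with a mean of 0.09 ± 0.44 in ESC, one of 0.83 ± 0.16 in Diff, one of -0.16 ± 0.18 in Mid and one of 1.81 ± 0.13 in Late (SD, n = 3 each). The other 7 genes changed by -0.38 to 0.64 from Mid to Late. P4ha2 measured 6.83, 6.40 and 6.68 in Late, against 6.14, 6.23 and 5.63 in Mid, and did not pass (change 0.64 ± 0.44, SE, limma adjusted p = 0.45). Serpinh1 measured 7.19, 7.17 and 6.96 in Late, against 7.30, 7.00 and 6.73 in Mid, with overlapping arrays.

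Expanded nEnd cultures were also set against XEN cells. Mid and Late were pooled for it as nEnd with equal weight. Of the 8 genes, 3 were lower in nEnd by the test and 0 higher, where 41.1% of all tested genes were called 16.6% higher and 24.5% lower. Arrays were without overlap for 3 of 8 (30.7% of all tested genes). The largest gap was in Fkbp10. It ranged from -0.36 to 1.91 over the 6 nEnd arrays, against 5.58, 5.91 and 6.18 in XEN, 33.5-fold lower (change -5.07 ± 0.28, SE, limma adjusted p = 1.7e-12). Loxl2 ranged from 4.01 to 5.08 in nEnd and measured 6.28, 6.24 and 7.17 in XEN, 4.13-fold lower in nEnd (change -2.05 ± 0.65, SE, limma adjusted p = 0.014). Plod2 ranged from 3.77 to 4.58 in nEnd and measured 4.91, 4.62 and 5.60 in XEN, with a change of -0.79 ± 0.26 (SE, limma adjusted p = 0.018).

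XEN 3 was the highest XEN array for 7 of the 8 genes, all but Plod1. Without it the Loxl2 change was -1.74 and the Plod2 change -0.51, and neither was called (limma adjusted p = 0.079 and 0.18), while that of Fkbp10 was -4.92 and called. The Plod2 call was also lost with quantile normalization (-0.47) and with the authors' series matrix values (-0.52).

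The remaining 5 genes were not called between nEnd and XEN. Serpinh1 differed by -0.34 ± 0.37, Pxdn by -0.12 ± 0.40, P4ha1 by -0.18 ± 0.34 and Plod1 by -0.09 ± 0.21 (SE). P4ha2 ranged from 5.63 to 6.83 in nEnd and measured 7.47, 6.50 and 7.57 in XEN; its change of -0.86 ± 0.38 did not pass (SE, limma adjusted p = 0.076). It passed with the compared groups alone (limma adjusted p = 0.038), with median scaling (-1.22), normexp correction (limma adjusted p = 0.029) or the replicate block (limma adjusted p = 0.023), and without XEN 2 (-1.20). Among the 26 other processing genes, nEnd was higher for 2 and lower for 9. Adamts14, a procollagen protease, was higher by 2.16 ± 0.29 (SE). Loxl3, a lysyl oxidase relative, was well above background on 0 of 6 nEnd arrays and on 2 of 3 XEN arrays, and at least 1.85-fold lower in nEnd. Col4a2 was higher in nEnd by 2.18 ± 0.47 (SE, limma adjusted p = 0.00065).

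XEN cells, an established extraembryonic endoderm line, were called above ESC for 8 of 8 genes. Of all tested genes, 52.1% were called, 30.7% higher and 21.5% lower. Arrays did not overlap for any of the 8 genes (57.8% of all tested genes had no overlap). Line and medium differ between XEN and ESC along with the state, and the line also differs between XEN and nEnd. Fkbp10, which was not called in Diff, was 55.7-fold higher in XEN than in ESC (change 5.80 ± 0.32, SE, limma adjusted p = 1.2e-12). Loxl2 was 138-fold higher, at 7.11 ± 0.75 (SE, limma adjusted p = 3.0e-08). The smallest change was again that of Plod1, 1.65 ± 0.24 (SE, limma adjusted p = 4.2e-06). This comparison and Diff minus ESC share their ESC arrays. Among the 26 other processing genes 13 were called higher and 4 lower, led by P3h2 (6.56 ± 0.76, SE), Bmp1 (5.92 ± 0.38, SE) and P3h4, a partner of lysyl hydroxylase (4.61 ± 0.26, SE).

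The other route to endoderm in the series starts from primed cells, and there the same genes moved apart. From EpiSC to ADE, 4 of 8 genes were called (37.6% of all tested genes were, 20.7% lower and 16.9% higher), 3 lower and 1 higher. Arrays were without overlap for 7 of 8 (47.7% of all tested genes). Plod2 measured -2.60, -2.47, -2.37 and -1.26 in ADE, against 1.51, 1.47 and 1.16 in EpiSC. All ADE arrays were far below all EpiSC arrays, 11.8-fold on average (change -3.55 ± 0.28, SE, limma adjusted p = 1.7e-09), and this was the lowest group mean of Plod2 in the series; with normexp background correction the change was -2.32. P4ha2 measured -0.18, -0.36, -0.02 and -0.29 in ADE, against 2.62, 2.71 and 2.56 in EpiSC, with narrow spread on both sides (change -2.84 ± 0.41, SE, limma adjusted p = 8.3e-06). The other catalytic subunit gene, P4ha1, measured 0.20, 0.37, -0.08 and -0.14 in ADE, against 0.73, 0.65 and 0.88 in EpiSC. Its arrays did not overlap, but the change of -0.67 ± 0.37 did not pass (SE, limma adjusted p = 0.17). Fkbp10 measured 2.90, 2.49, 2.88 and 3.16 in ADE, against 4.47, 4.46 and 4.91 in EpiSC (change -1.76 ± 0.30, SE, limma adjusted p = 6.9e-05).

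Pxdn went the other way. It measured 6.19, 6.55, 5.78 and 6.03 in ADE, against 4.84, 4.87 and 4.89 in EpiSC, every ADE array above every EpiSC array (change 1.27 ± 0.43, SE, limma adjusted p = 0.023). This call was lost without ADE 2 (change 1.13) and without any 1 of the EpiSC arrays (1.26 without EpiSC 1, 1.27 without EpiSC 2, 1.28 without EpiSC 3), and with arrays scaled on their median (1.24, limma adjusted p = 0.080). Serpinh1 measured 5.49, 6.03, 5.74 and 5.56 in ADE, against 5.72, 5.65 and 5.83 in EpiSC, overlapping ranges and a change of -0.03 ± 0.40 (SE). Plod1 (-0.53 ± 0.23, SE) and Loxl2 (-1.23 ± 0.70, SE) were lower in ADE on all arrays but not called. When ADE and EpiSC were fitted without the other groups, Plod1, P4ha1 and Loxl2 were called as well, which made 7 of 8; Plod1 was also called with normexp correction and with the authors' series matrix values. The summed fibroblast markers were also lower in ADE (3.95 to 17.6 times the 75th percentile) than in EpiSC (18.0 to 26.8 times), and 5 of 8 tested markers were called lower; their part in these changes was not tested.

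**Figure D3:**
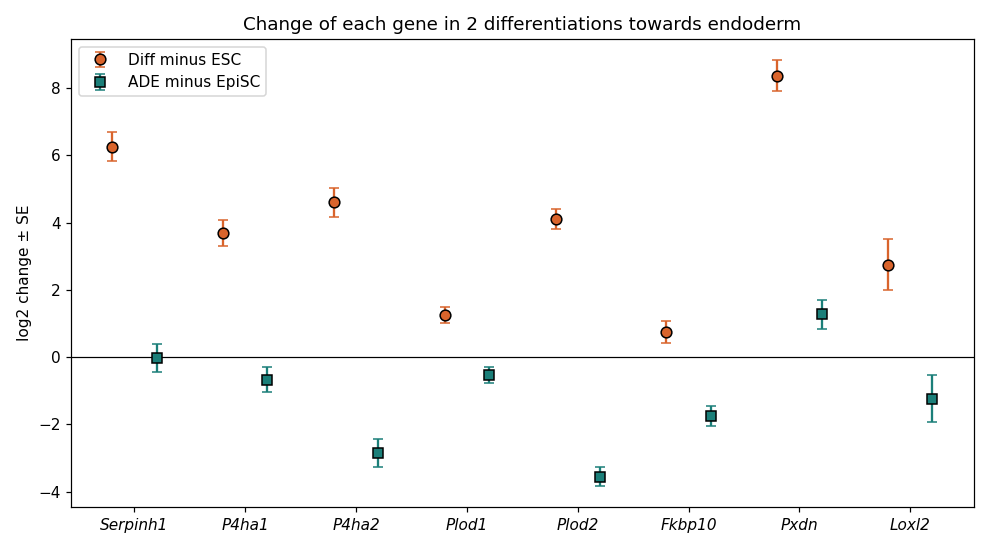
log2 change with SE of each gene for Diff minus ESC (circles) and ADE minus EpiSC (squares). The circles lie between 0.74 and 8.36, and the squares lie between -3.55 and 1.27, with Pxdn as the 1 square above 0.

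The difference between both differentiations was tested directly, as the Diff minus ESC change less the ADE minus EpiSC change. It was positive and called for 8 of 8 genes, where 36.8% of all tested genes were called and 21.9% were positive. The differences were 7.65 ± 0.41 for Plod2, 7.44 ± 0.60 for P4ha2 and 7.09 ± 0.64 for Pxdn, then 6.28 ± 0.59 for Serpinh1, 4.36 ± 0.54 for P4ha1, 3.98 ± 1.03 for Loxl2, 2.50 ± 0.44 for Fkbp10 and 1.77 ± 0.33 for Plod1 (SE, limma adjusted p from 5.4e-12 to 0.0038). The Pxdn value depends on the probe: the mean of both probes gave 4.47, and the other probe alone changed by 3.09 in Diff minus ESC and 1.24 in ADE minus EpiSC. The starting levels were not alike: Serpinh1 averaged 0.49 ± 0.56 in ESC and 5.73 ± 0.09 in EpiSC, and Pxdn -3.55 ± 0.14 in ESC and 4.87 ± 0.02 in EpiSC (SD, n = 3 each). The end levels were closer, with Serpinh1 at 6.74 ± 0.34 in Diff (SD, n = 3) and 5.70 ± 0.24 in ADE (SD, n = 4), and Pxdn at 4.81 ± 0.71 in Diff (SD, n = 3) and 6.14 ± 0.32 in ADE (SD, n = 4). Those levels stand in different array sets.

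Other genes placed the same comparisons in context. A list of hypoxia targets had 19 tested genes, and P4ha1, P4ha2, Plod2 and Loxl2 are related to it as known targets in other cells. Of the 19, 13 were called lower and 0 higher in ADE than in EpiSC. Of all tested genes, 20.7% were called lower and 16.9% higher there. The median change of the list was -2.22, against -0.05 over all genes. Bhlhe40, a transcription factor, fell by 5.20 on the log2 scale (SE 0.48, limma adjusted p = 1.7e-08) and Ndrg1, a stress response gene, fell by 3.51 (SE 0.68, limma adjusted p = 0.00024). In Diff minus ESC the same list had 1 gene called higher (Pfkfb3, a regulator of glycolysis, 1.21 ± 0.43, SE) and 1 lower (Kdm3a, a histone demethylase, -0.76 ± 0.30, SE), with a median of 0.46. Of all tested genes, 23.5% were called higher and 18.9% lower in Diff minus ESC. In nEnd minus XEN the list had 0 higher and 5 lower (16.6% and 24.5% of all tested genes). In XEN minus ESC it had 8 higher and 2 lower (30.7% and 21.5% of all tested genes). Of the members named as related to this list, Plod2 and P4ha2 were called lower in ADE than in EpiSC. P4ha1 and Loxl2 were not called there (limma adjusted p = 0.17 and 0.18). The part of hypoxia signalling in the changes of the 8 genes was not tested in any comparison. Of the 26 other processing genes, 7 were called higher and 5 lower in ADE. Adamts2, a procollagen protease, was higher by 4.61 ± 0.71 (SE, limma adjusted p = 1.9e-05), while Loxl1, a lysyl oxidase relative, fell by 3.22 on the log2 scale (SE 0.51) and Pcolce fell by 2.58 (SE 0.55). Col4a1 and Col4a2 were higher in ADE by 2.87 ± 0.75 and 1.91 ± 0.51 (SE).

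**Figure D4:**
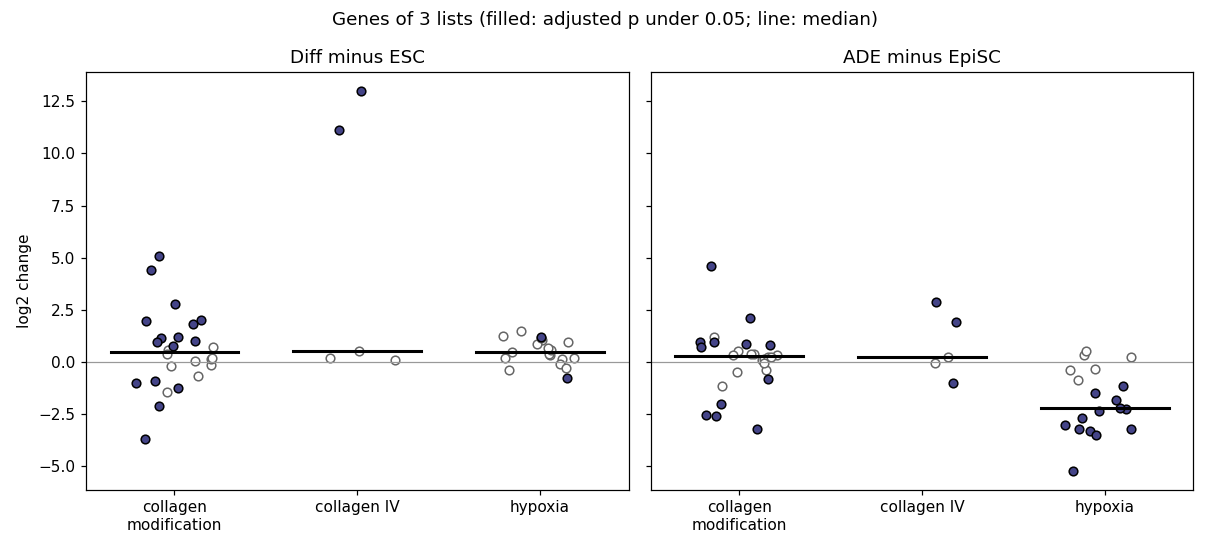
log2 change of each tested gene (points) of 3 lists in Diff minus ESC and ADE minus EpiSC, filled where limma's adjusted p is under 0.05, with the median of the list as a line. The median of the hypoxia list is 0.46 in Diff minus ESC and -2.22 in ADE minus EpiSC, and Col4a1 and Col4a2 stand alone above 10 in Diff minus ESC.

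Stable culture in Activin, CHIRON and LIF was set against stable culture in 2i/LIF. This compares whole media, both of which contain LIF, and the effect of any single ingredient was not tested. In NACL against 2iL, 2 of 8 genes were called, both higher (8.26% of all tested genes were called 4.12% higher and 4.14% lower). Arrays were without overlap for these 2 of 8 (15.5% of all tested genes). Fkbp10 measured 2.89, 2.91, 2.83 and 2.96 in NACL, against 0.33, 0.02 and 1.97 in 2iL, with NACL arrays almost identical and the 2iL arrays spread (change 2.12 ± 0.30, SE, limma adjusted p = 8.1e-05). The 1.97 was the E14-NanogGFP array. On the slide that held this line alone the difference was 0.99, and on the slide of HVMC and E14 it was 2.70. Pxdn measured 0.61, 1.03, 0.43 and 0.17 in NACL, against -3.82, -1.03 and -3.64 in 2iL (change 3.39 ± 0.43, SE, limma adjusted p = 2.6e-05). The -1.03 was the E14 array, against 0.43 in NACL 3 of that line. In 2iL a line and its array cannot be told apart. The other Pxdn probe gave 0.39, the signals corrected by normexp 1.92 and the authors' series matrix values 1.25. With the cell line paired in the fit, which used these 7 arrays, the changes were 2.17 and 3.44 but neither passed (replicate block by cell line, limma adjusted p = 0.068 for Fkbp10 and 0.071 for Pxdn; with both groups alone and no block, 0.054 for Fkbp10), and the genes called overall were 251 with it and 1350 without it.

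The arrays of the other 6 genes overlapped between NACL and 2iL. Loxl2 measured -0.25, 2.05, 1.75 and -1.04 in NACL, against -0.41, -1.58 and -1.48 in 2iL, and overlapped (change 1.79 ± 0.70, SE, limma adjusted p = 0.13). Without NACL 4 it was 2.34 and called (limma adjusted p = 0.032). P4ha2 measured 1.25, 2.70, 1.72 and 1.35 in NACL, against 0.80, 1.59 and -0.96 in 2iL (change 1.28 ± 0.41, SE, limma adjusted p = 0.057); it was called without 2iL 2 (1.83), without NACL 1 (1.45) or without NACL 4 (1.41), and with quantile normalization (1.30) or the authors' series matrix values (1.15). Plod1, Plod2, P4ha1 and Serpinh1 changed by 0.16 to 0.88 and were not called. Hypoxia targets had 3 called higher and 0 lower here, among them Egln3, an oxygen-sensing hydroxylase (2.06 ± 0.55, SE), and Pdk1, a kinase that restrains pyruvate use (1.72 ± 0.40, SE). Col4a1 was higher in NACL by 2.51 ± 0.75 (SE, limma adjusted p = 0.038), with 2 of 3 2iL arrays well above background. Of the 26 other processing genes, 1 was called higher (Adamts14, 1.07 ± 0.31, SE) and 1 lower (Adamts2, -2.39 ± 0.71, SE). Of the 6 primitive and extraembryonic endoderm markers, 3 were called higher and 0 lower in NACL than in 2iL. The sum of these 6 was 0.826 to 2.87 times the 75th percentile in NACL and 0.522 to 0.704 times in 2iL. The part of such cells in the changes was not tested. Of the 9 fibroblast markers summed, 2.96 to 18.3 times the 75th percentile in NACL and 1.77 to 2.85 times in 2iL, Thy1 averaged 2.74 in NACL and 0.61 in 2iL, while Col1a1 averaged -3.38 in NACL and -3.09 in 2iL on the log2 scale; their part was not tested.

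Primed EpiSC exceeded naive 2iL cells for 8 of 8 genes (41.6% of all tested genes were called 21.5% higher and 20.1% lower), with a median change of 3.00. Arrays were without overlap for 8 of 8 (52.2% of all tested genes). Pxdn measured 4.84, 4.87 and 4.89 in EpiSC, against -3.82, -1.03 and -3.64 in 2iL, a change of 7.69 ± 0.46 (SE, limma adjusted p = 1.3e-11), where the other Pxdn probe gave 3.07. Loxl2 measured 4.23, 4.35 and 3.57 in EpiSC, against -0.41, -1.58 and -1.48 in 2iL (5.21 ± 0.75, SE, limma adjusted p = 5.8e-06). Fkbp10 measured 4.47, 4.46 and 4.91 in EpiSC, against 0.33, 0.02 and 1.97 in 2iL (3.84 ± 0.32, SE, limma adjusted p = 2.2e-09). Serpinh1 was higher by 3.36 ± 0.43, P4ha1 by 2.65 ± 0.39, P4ha2 by 2.16 ± 0.44, Plod2 by 1.86 ± 0.30 and Plod1 by 1.19 ± 0.24 (SE). Cell line differs between these groups along with the state. Fibroblast markers moved the same way: 6 of 8 tested were called higher in EpiSC, their sum was 18.0 to 26.8 times the 75th percentile in EpiSC and 1.77 to 2.85 times in 2iL, and Col1a1 and Col1a2 averaged 2.28 and 3.63 in EpiSC, against -3.09 and -1.48 in 2iL. Their part in the 8 changes was not tested. Hypoxia targets were called higher for 12 and lower for 2 of 19, with Egln3 higher by 3.59 ± 0.59 and Adm, a vasoactive peptide, by 3.49 ± 1.05 (SE). Among the other processing genes, 10 were called higher and 6 lower. Bmp1 was higher by 4.53 ± 0.38 (SE). Loxl4, a lysyl oxidase relative, and P3h2 were well above background on 0 of 3 2iL arrays and at least 6.16-fold and 7.88-fold higher in EpiSC. Of the collagen IV chains 3 of 5 were called higher, including Col4a1 (4.76 ± 0.80, SE) and Col4a5 (4.56 ± 0.40, SE).

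Set out over all 9 groups, each gene had its own order of levels. XEN had the highest mean for Plod2, P4ha1, P4ha2, Fkbp10, Serpinh1 and Loxl2, Late for Plod1 and Mid for Pxdn. In P4ha1 the 4 groups XEN, Late, Mid and Diff, with means of 3.30 ± 0.58, 3.19 ± 0.52, 3.06 ± 0.21 and 2.79 ± 0.76 (SD, n = 3 each), overlapped in their ranges, and a gap followed before EpiSC at 0.75 ± 0.12 (SD, n = 3). The same 4 groups overlapped neighbour by neighbour in Serpinh1, with means of 7.40, 7.10, 7.01 and 6.74. In Pxdn, Mid, ADE, XEN and Late did so at 5.82 to 6.20, with EpiSC at 4.87 and Diff at 4.81 below them, NACL at 0.56, and 2iL at -2.83 and ESC at -3.55 overlapping at the low end. Fkbp10 ran XEN 5.89, EpiSC 4.62, then NACL 2.90 and ADE 2.86 overlapping, Late 1.81, then Diff 0.83, 2iL 0.77, ESC 0.09 and Mid -0.16, of which each overlapped the next, while Diff overlapped neither ESC nor Mid. Its 2iL arrays (0.02 to 1.97) also overlapped Late (1.66 to 1.91). For Plod2 the order was XEN 5.04, then Mid 4.42, Late 4.09 and Diff 4.01 overlapping, EpiSC 1.38, then ESC -0.09, NACL -0.27 and 2iL -0.48, with NACL overlapping both ESC and 2iL and those not overlapping each other, and ADE -2.17. For P4ha2, XEN (7.18) and Late (6.64) overlapped, as did Mid (6.00) and Diff (5.31), and EpiSC (2.63) and NACL (1.75), while 2iL (0.48) overlapped both ESC (0.71) and ADE (-0.21), which did not overlap each other. The 2iL arrays (-0.96 to 1.59) also overlapped NACL (1.25 to 2.70). For Loxl2, XEN (6.56) stood apart, Late (4.62), Mid (4.41) and EpiSC (4.05) overlapped, and ADE (2.82), Diff (2.20), NACL (0.63), ESC (-0.55) and 2iL (-1.16) overlapped each with its neighbour. The spread Diff arrays (0.59 to 4.63) also overlapped Late, Mid and EpiSC. Plod1 ran without a gap from Late (0.98) through XEN (0.94), Mid (0.73) and Diff (0.54) to EpiSC (0.11), and from ADE (-0.42) through ESC (-0.71) and NACL (-0.92) to 2iL (-1.08). The distance between the highest and the lowest group mean was 2.06 for Plod1, 5.20 for P4ha1, 6.05 for Fkbp10, 6.90 for Serpinh1, 7.22 for Plod2, 7.39 for P4ha2, 7.72 for Loxl2 and 9.76 for Pxdn. These distances hold for the probes used. The other Pxdn probe changed by 4.56 in XEN minus ESC, against 9.68 for the probe used.

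Fkbp10 was the gene whose pattern was least like the others. Over the 9 group means its Pearson correlation with the other 7 was 0.09 (Plod2) to 0.57 (Loxl2). Among the other 7 the correlations were 0.55 (Plod2 with Pxdn) to 0.99 (Plod1 with P4ha1), with 0.98 for Plod2 with P4ha2 and 0.96 for Serpinh1 with Pxdn. These are descriptions over 9 points in 2 array sets, which share the scaling of the arrays. Outside the 8 genes, the genes most like them over the same 9 means were Frmd8 (0.99) and Desi1 (0.99) for Plod1, Cryab (0.99) and Sptbn1 (0.98) for Plod2, Frmd8 (0.99) and Smurf2 (0.98) for P4ha1, and Oxsm (0.99) and Rgl1 (0.98) for P4ha2. They were Gchfr (0.97) and Matn2 (0.96) for Fkbp10, Rnf41 (0.99) and Sh3pxd2b (0.99) for Serpinh1, Frg2f1 (0.99) and Ap1s3 (0.98) for Pxdn, and Arl5a (0.99) and Fads3 (0.98) for Loxl2.

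Other probes of the genes ran the same way in the large changes. P4ha1 has a second probe that changed by 2.84 in Diff minus ESC, against 3.69 for the probe used. Loxl2 has 2 more, at 2.72 and 1.05 in Diff minus ESC and -2.19 and -2.04 in nEnd minus XEN. Over the 29 arrays the other probes correlated with the one used at 0.86 (Plod1), 0.93 (Pxdn), 0.98 (P4ha1) and 0.99 and 0.95 (Loxl2). Plod2, P4ha2, Fkbp10 and Serpinh1 have 1 probe each.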

How the data were processed

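The scanner files the authors deposited hold spot intensity, per the file headers, read by Agilent Feature Extraction, with the processed signal already background-corrected. The headers name versions 11.0.1.1 and 12.0.1.1 for the 2 array sets and the submitters' processing notes name 9.1. The deposited series matrix holds values read as log2, of unstated centring and log base, with column medians of 5.94 to 5.949, and served as an alternative.

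Irregular spots were left out, spots of a probe were averaged, and log2 signals were set relative to the 75th percentile over probes, which was 137 to 323 intensity units. Well above background were 49.2% to 79.7% of probes, 0 were saturated, and the number of arrays limits the precision. Accessions named 27663 of 55681 probes (GRCm38.p6 annotation, used for names, since the headers name mm9). The probe with the highest mean stood for a gene, and 16343 genes well above background on all arrays of 1 group or more were tested. One model of the 9 group means was fitted with limma 3.58.1 (lmFit, eBayes) in R 4.3.3, tested on simulated data, and adjusted by Benjamini-Hochberg. The nEnd value weights both passages equally, and its SE treats paired replicates as independent. A probe well above background on 0 arrays of a side has a bound only, the dim side taken at the lowest signal well above background on each array, hence "at least". Replicate numbers paired Late with Mid (correlations of deviations 0.22, 0.13 and 0.14); NACL and 2iL were paired by cell line. Named genes were the 8 members, up to 3 called genes of the processing list and up to 2 of the collagen IV and hypoxia lists by size of change, and 2 most alike genes per member. The members and lists were chosen with earlier results of these data known.

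The normexp alternative used the median spot signal, because the files hold no mean signal. The percentile was calculated over probes and over single spots, with both results seen before probes were kept, and the spot version is reported as an alternative added after seeing the data.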

Additional observations from a re-analysis of the deposited data

Results flagged for a closer look

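All 8 genes changed differently in both differentiations towards endoderm, by the test of the difference itself (Diff minus ESC less ADE minus EpiSC, limma, adjusted over all genes tested). The differences on the log2 scale were 7.65 for Plod2 (SE 0.41), 7.441 for P4ha2 (SE 0.60), 7.091 for Pxdn (SE 0.64), 6.276 for Serpinh1 (SE 0.59), 4.358 for P4ha1 (SE 0.54), 3.981 for Loxl2 (SE 1.03), 2.497 for Fkbp10 (SE 0.44) and 1.774 for Plod1 (SE 0.33). For Plod2 and P4ha2 the directions were opposite, each called higher in Diff than in ESC and lower in ADE than in EpiSC. For Pxdn both changes were upward, and for Serpinh1 the second was -0.03 ± 0.40 (SE). All 8 remained called under every array left out in turn, and for Pxdn the authors' series matrix values gave 3.88 and the mean of both probes 4.47. Each differentiation lies in its own array set, so the difference compares changes measured within sets. ADE and NACL hold 4 arrays, and a check for a single array far from the rest flagged 0 of 16 such sets of values (8 genes in 2 groups). With 4 arrays such a check has little power. For Plod2, ADE 4 at -1.26 stood above the other ADE arrays, at -2.60, -2.47 and -2.37.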

How the results depend on the processing

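Counts of members called, of 8, moved by over 1.5 times in 4 comparisons. In Mid minus Diff the count of 3 was 1 with the compared groups alone, 0 with median scaling and 1 of 6 with the authors' series matrix values, and 0 to 3 with 1 array left out. In nEnd minus XEN the 3 became 1 of 6 with the authors' series matrix values and 1 to 4 with 1 array left out. In ADE minus EpiSC the 4 became 7 with the compared groups alone. In NACL minus 2iL the 2 became 1 with the compared groups alone and 0 with the replicate block by cell line, and 2 to 4 with 1 array left out. Genes called in Mid minus Diff were 4761, against 2729 with the compared groups alone and 2909 with median scaling. In Late minus Mid they were 1118, against 255, 384 and, with the replicate block, 620, and 409 to 1270 with 1 array left out. In NACL minus 2iL they were 1350, against 451, 850 and, with the replicate block by cell line, 251, and 822 to 1664 with 1 array left out. Fewer samples enter the fits of compared groups alone and those with a replicate block. The other causes were not tested. Median scaling gave a median change of all genes of 0.32, against -0.04, in Diff minus ESC, 0.67 against 0.03 in XEN minus ESC, -0.38 against -0.03 in nEnd minus XEN and -0.04 against 0.12 in Late minus Mid, and the share of positive calls in the difference of both differentiations was 73.6%, against 59.5%.

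Signs turned only for changes that were not called. In Late minus Mid, P4ha1 was -0.024 with median scaling, and -0.16 to 0.32 with 1 array left out. Serpinh1 was -0.063 with median scaling, -0.18 with quantile normalization and -0.16 with the authors' series matrix values, and -0.043 to 0.24 with 1 array left out. Loxl2 was -0.013 to 0.36 with 1 array left out. In nEnd minus XEN, quantile normalization gave 0.035 for Plod1, 0.079 for P4ha1, 0.18 for Serpinh1 and 0.33 for Pxdn, and the authors' series matrix values gave 0.22 for Serpinh1 and 0.24 for Pxdn. The mean of all probes gave 0.13 for Plod1, and leaving out 1 array gave -0.28 to 0.080 for Plod1, -0.41 to 0.15 for P4ha1 and -0.28 to 0.021 for Pxdn. In ADE minus EpiSC, Serpinh1 was 0.012 with quantile normalization and 0.022 with the replicate block, and -0.13 to 0.043 with 1 array left out. In NACL minus 2iL, Plod1 was -0.082 with the mean of all probes. Of 1270 member values under alternatives, 1194 kept direction and call, 35 lost the call, 18 gained it and 23 turned sign; the cause was not tested. The percentile over single spots, added after seeing the data, changed 0 member counts. Outside Late and Mid the replicate numbers were not taken to pair the arrays, and there the correlations of same-numbered deviations were mixed. They were 0.09, 0.02 and 0.08 for Diff with ESC, 0.31, -0.12 and 0.32 for ADE with EpiSC, and -0.01, -0.02 and -0.10 for XEN with ESC. The other group pairs tried gave both signs. With the replicate block Fkbp10 in Diff minus ESC was called (limma adjusted p = 0.013). The slide block left Loxl2 in Mid minus Diff at 2.32, not called, and Plod2 in nEnd minus XEN at -0.63, not called.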
